A study of Mus musculus with 18 samples.

Results

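Gap junctions and intercalated discs join the heart's muscle cells, and the genes described here encode their core proteins. The group was chosen by name and holds 10 genes of the 30072 in the deposited tables. They were 4 connexin genes (Gja1, Gjc1, Gja5 and Gja4), 5 desmosome genes (Dsp, Pkp2, Jup, Dsc2 and Dsg2) and the cadherin gene Cdh2. The rule names genes only, and all 10 passed the filter on low counts that left 15054 genes for testing.

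RNA was sequenced from 18 CD-1 mice (an outbred stock) aged at least 8 weeks, male and female with littermates matched across groups; the sex of each mouse is not labelled. The 3 groups held 6 mice each. By the study's methods, ctrl mice had isoflurane anesthesia and computed tomography (CT) imaging but not the treatment radiation. The 2wk mice were collected 2 weeks after 1 dose of 25 Gy under isoflurane, and the 6wk mice 6 weeks after that dose. The labels do not give the time at which ctrl mice were collected, nor the age of any group at collection. The series title and the treatment label name gamma radiation, whereas the study's methods name an X-ray source aimed at the heart under image guidance. The samples are labelled as the septum between the ventricles, whereas the study's methods speak of ventricular tissue, and the labels name no transgene. Estimated counts summed to between 11522987 and 15501019 per mouse, so that 3 counts correspond to between 0.194 and 0.260 CPM, the unit of counts after scaling by library size. All 12 cardiomyocyte markers passed the filter, and 1 control mouse (replicate 4) stood apart with the highest summed level of the 7 fibroblast markers (3897 CPM against a control median of 1642 CPM).

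Connexins assemble into channels that let current pass from one myocyte to the next, and Gja1 (connexin 43) is the main connexin of ventricular muscle. Gjc1 (connexin 45) and Gja5 (connexin 40) are best known from the conduction system, Gja5 also from atrial muscle and arterial endothelium, and Gja4 (connexin 37) from endothelium. Desmosomes hold the cells together mechanically: the desmosomal cadherins Dsg2 and Dsc2 span the membrane, Jup (plakoglobin) and Pkp2 (plakophilin 2) bind their tails, and Dsp (desmoplakin) ties the complex to desmin filaments. Cdh2 (N-cadherin) is the adherens junction cadherin of the heart, and in the intercalated disc adherens junctions and desmosomes mix into a joint structure, the area composita.

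RefSeq promoter windows (GRCm38.p6, from 250 bases before to 50 bases after the annotated start) were matched by symbol for 5 of the 10 genes: Gja1, Gja5, Gja4, Dsp and Jup. The windows of Gja1, Dsp and Jup are printed 5′ to 3′. Gja1 was chosen as the most abundant connexin, and Jup as the gene whose ratio to Dsp changed at both times. Dsp was chosen because it was lower than in ctrl mice at the later time, relative to the typical expressed gene. That difference in Dsp depended on how the mice were scaled. Capitals mark matches, on either strand, to a T-box motif (AGGTGTG), an AP-1 motif (TGANTCA), a GC box (GGGCGG, or CCGCCC where it lies on the other strand) and an RBPJ motif (TGGGAA). An NKX2-5 motif (TNAAGTG) was also searched, and no marked match overlaps another.
Gja1, chr10:56377050-56377349, plus strand: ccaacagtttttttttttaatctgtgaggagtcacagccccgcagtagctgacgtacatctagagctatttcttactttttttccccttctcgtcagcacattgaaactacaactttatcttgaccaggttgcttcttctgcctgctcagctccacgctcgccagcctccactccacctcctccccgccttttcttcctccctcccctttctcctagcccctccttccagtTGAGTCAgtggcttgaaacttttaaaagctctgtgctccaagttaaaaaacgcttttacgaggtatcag
Dsp, chr13:38151044-38151343, plus strand: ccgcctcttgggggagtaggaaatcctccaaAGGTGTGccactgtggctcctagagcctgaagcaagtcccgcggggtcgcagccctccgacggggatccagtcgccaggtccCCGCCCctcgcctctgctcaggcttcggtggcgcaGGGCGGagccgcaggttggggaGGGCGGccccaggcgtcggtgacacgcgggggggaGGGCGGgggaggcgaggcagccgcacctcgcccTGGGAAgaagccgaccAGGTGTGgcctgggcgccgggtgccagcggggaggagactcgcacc
Jup, chr11:100397741-100398040, minus strand: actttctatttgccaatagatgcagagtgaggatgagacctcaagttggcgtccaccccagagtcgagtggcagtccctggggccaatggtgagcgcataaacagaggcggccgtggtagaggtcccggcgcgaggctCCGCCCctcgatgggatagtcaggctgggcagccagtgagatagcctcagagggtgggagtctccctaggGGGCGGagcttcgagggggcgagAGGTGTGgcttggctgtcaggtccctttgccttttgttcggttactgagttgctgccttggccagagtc

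The Gja1 window held 1 AP-1 match and no match to the other motifs searched. Dsp held 2 T-box matches, 4 GC boxes and 1 RBPJ match, and Jup held 1 T-box match and 2 GC boxes. Of 32851 mouse promoter windows of the same length, 5.84% held the T-box letters, 7.81% the AP-1 letters, 35.7% a GC box and 25.6% the RBPJ letters. The windows of Gja5 and Gja4 each held 1 GC box. These matches describe letters in the windows and no binding was measured.

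The genes lie on 7 chromosomes of the mouse genome (GRCm38, GENCODE M21 gene limits). Gja1 occupies chr10:56377330-56402513 on the plus strand, Gjc1 chr11:102799579-102819700 on the minus strand, Gja5 chr3:96904693-97077416 on the plus strand and Gja4 chr4:127311421-127314039 on the minus strand. Dsp occupies chr13:38151294-38198577 on the plus strand, Pkp2 chr16:16213318-16272712 on the plus strand and Jup chr11:100368958-100397763 on the minus strand. Dsg2, Dsc2 and Cdh2 share chromosome 18. Exons of Gja5 overlap exons of Gpr89 on the opposite strand, and Dsp and Dsg2 overlap Gm10129 and Gm16090, 2 opposite-strand genes that were not analysed here. Whether the counting used strand is not stated, so reads of such pairs may not be separable.

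Levels of different genes can be compared only per length, as TPM, the transcript abundance scaled to length and to the total of the mouse. In ctrl hearts Dsp (210 ± 13.1 TPM, SD, n = 6) and Gja1 (203 ± 22.9 TPM) were the most abundant, and their ranges overlapped. Jup (129 ± 20.8 TPM) and Cdh2 (108 ± 17.2 TPM) followed, also with overlapping ranges, and Pkp2 (64.7 ± 7.91 TPM) lay apart from its neighbours. A low group of Dsc2, Gjc1 and Dsg2 had means between 10.1 and 11.7 TPM and could not be ordered. Gja4 (3.66 ± 0.847 TPM) and Gja5 (2.79 ± 0.713 TPM) had the lowest levels and overlapped each other.

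After irradiation the order of the group means differed from ctrl in 2 places, in both between genes whose ctrl ranges overlapped. Gja1 stood first at both times, at 255 ± 38.8 TPM at 2 weeks with a range that overlapped Dsp, and at 270 ± 32.7 TPM at 6 weeks, above every Dsp value (204 to 229 TPM). Gjc1 moved to sixth place, and at 6 weeks its range of 16.0 to 23.2 TPM lay wholly above Dsc2 (9.25 to 12.0 TPM). TPM values are divided by the total within each mouse and carry the shift between groups that is described with the scaling below.

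**Figure D1:**
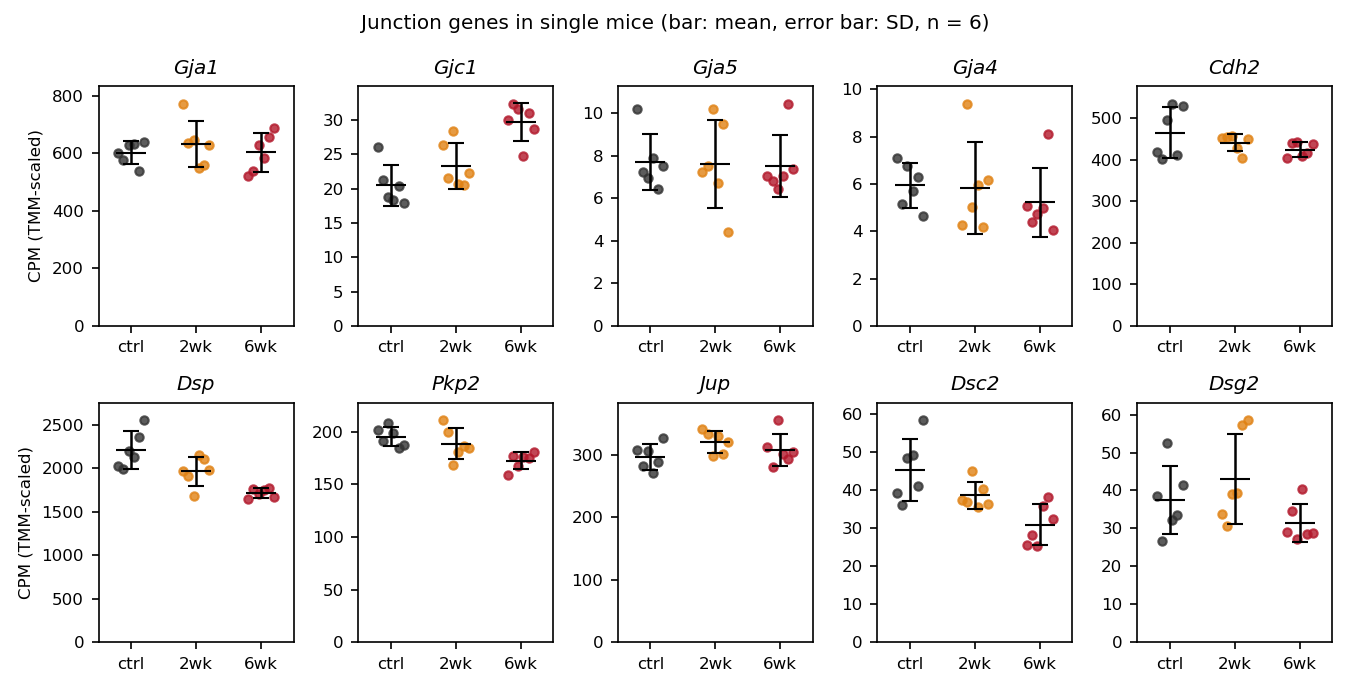
TMM-scaled CPM (vertical axis, from 0) of the 10 genes in each mouse, by group; points are mice, bars are group means and error bars are SD (n = 6). All 6wk points of Dsp and Pkp2 lie below all ctrl points, 5 of 6 6wk points of Gjc1 lie above all ctrl points, and Gja1 overlaps in the 3 groups.

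The first question was whether the junction genes differed at 2 weeks post-IR. None of the 10 passed an adjusted P of 0.05 in edgeR's quasi-likelihood test, where 5.02% of all tested genes did. At an unadjusted P under 0.05 there was 1 gene, Dsp, and neither DESeq2 nor limma voom called any. No gene had groups that lay apart, where 3.24% of all genes did. Log2 fold changes lay between -0.23 and 0.21, with a median of -0.03 against 0.00 over all genes. RNA came from whole tissue, in which fewer cells of a type and less RNA per cell cannot be told apart.

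Dsp had 1992, 2164 and 2552 CPM (lowest, median and highest) in ctrl mice and 1685, 1976 and 2158 CPM at 2 weeks. Of the 6 irradiated mice, 4 lay below all controls, and the groups overlapped. In edgeR the log2 change was -0.17 (SE 0.0722, adjusted P = 0.197). Jup pointed the other way, with a log2 change of 0.11 (SE 0.0619, adjusted P = 0.323) and all 6 irradiated mice above the control median. Gjc1 also had all 6 irradiated mice above the control median, with a log2 change of 0.18 (SE 0.104, adjusted P = 0.339).

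At 6 weeks post-IR, 4 of the 10 genes passed the test, against 25% of all tested genes. One connexin rose (Gjc1) and 3 desmosome genes fell (Dsp, Pkp2 and Dsc2), where 13.5% of all genes were called higher and 11.5% lower. None of the 10 changed by more than 1 on the log2 scale, a size that 5.95% of all genes reached with a call. The median log2 fold change of the 10 was -0.16, against -0.02 over all genes. These directions are relative to the typical expressed gene, since TMM, the trimmed mean of M-values, was used to scale one mouse to another.

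Gjc1 had 17.9, 19.6 and 26.1 CPM (lowest, median and highest) in ctrl mice, 20.6, 21.9 and 28.4 CPM at 2 weeks, and 24.8, 30.5 and 32.3 CPM at 6 weeks. At 6 weeks 5 of 6 mice lay above every control and above every 2wk mouse, and the groups overlapped through 1 mouse. The log2 fold change at 6 weeks was 0.54 (95% interval 0.32 to 0.75, adjusted P = 0.000923), a 1.45-fold increase. It rested on 203 to 401 counts per control mouse and 334 to 502 counts per 6wk mouse.

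Gja1, the main ventricular connexin, had 539, 616 and 638 CPM in ctrl mice, 549, 634 and 772 CPM at 2 weeks, and 522, 607 and 688 CPM at 6 weeks. The 6wk mice spread on both sides of the controls, with 2 above and 2 below all of them. Its log2 fold change at 6 weeks was 0.00 on TMM-scaled counts (95% interval -0.18 to 0.18, adjusted P = 0.995). Under scaling by library size alone it was 0.26, with an adjusted P of 0.0251, where the median of all genes was 0.24.

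Gja5 and Gja4 did not pass the test at 6 weeks. Gja5 had 6.43, 7.38 and 10.2 CPM in ctrl mice and 6.43, 7.04 and 10.5 CPM at 6 weeks, and its 95% interval at 6 weeks reached from -0.41 to 0.32. Gja4 had 4.66, 5.98 and 7.09 CPM in ctrl mice and 4.06, 4.85 and 8.12 CPM at 6 weeks, with an interval from -0.61 to 0.22. In both genes the groups overlapped, and their highest 6wk value was in the same mouse (replicate 5). Both genes had between 54 and 157 counts per mouse in these groups.

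Among the desmosome genes Dsp showed the clearest difference. It had 1644, 1728 and 1773 CPM at 6 weeks, all below the lowest control (1992 CPM). Its log2 fold change was -0.36 (95% interval -0.51 to -0.21, adjusted P = 0.00115), and the SD between mice was 53.4 CPM at 6 weeks against 214 CPM in controls. Groups without overlap on TMM-scaled counts, as in Dsp and Pkp2, were seen in 9.23% of all tested genes in this comparison.

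Pkp2, the plakophilin of heart muscle, had 185, 195 and 209 CPM in ctrl mice and 159, 176 and 181 CPM at 6 weeks. The groups did not overlap, and the difference was small, with a log2 change of -0.18 (SE 0.0555, adjusted P = 0.0230). Without control replicate 3 the adjusted P was 0.0599 and without 6wk replicate 1 it was 0.0554. With the replicate number as a block it was 0.0537.

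Dsc2, a desmosomal cadherin, had the largest decrease of the 10 genes. It fell from 36.1, 44.6 and 58.2 CPM in ctrl mice to 25.4, 30.3 and 38.0 CPM at 6 weeks, and 5 of 6 irradiated mice lay below every control. The log2 fold change was -0.55 (95% interval -0.80 to -0.30, adjusted P = 0.00216). Dsg2, its partner cadherin, had 26.7, 35.9 and 52.4 CPM in ctrl mice and 27.3, 29.0 and 40.3 CPM at 6 weeks. The Dsg2 groups overlapped fully, and its log2 fold change of -0.25 (SE 0.173) had an adjusted P of 0.322.

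Jup and Cdh2 did not pass the test on TMM-scaled counts. Jup had 271, 297 and 328 CPM in ctrl mice and 281, 303 and 356 CPM at 6 weeks, with a log2 change of 0.05 (95% interval -0.08 to 0.18, adjusted P = 0.582). Cdh2 had 401, 456 and 534 CPM in ctrl mice and 403, 426 and 441 CPM at 6 weeks, with a log2 change of -0.13 (95% interval -0.28 to 0.02, adjusted P = 0.201). All 6 irradiated mice lay below the control median of Cdh2 and none lay below the lowest control.

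**Figure D2:**
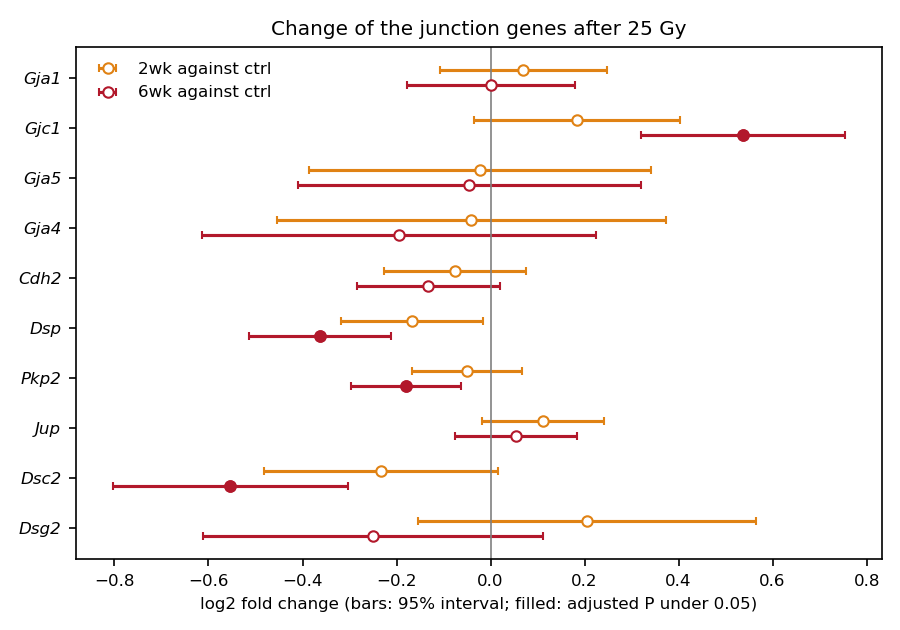
Log2 fold change (horizontal axis) of each gene at 2 weeks (orange) and 6 weeks (red) against ctrl on TMM-scaled counts, with 95% intervals; filled points have an adjusted P under 0.05. The 4 filled points are Gjc1 (0.54), Dsp (-0.36), Pkp2 (-0.18) and Dsc2 (-0.55), all at 6 weeks.

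How the mice were scaled decided the sign of many of these changes. The median share of counts from mitochondrially encoded genes was 23.2% in ctrl mice, 20.2% at 2 weeks and 17.4% at 6 weeks, and TMM factors rose from between 0.844 and 0.991 in ctrl mice to between 1.04 and 1.13 at 6 weeks. With library size alone the median of all genes at 6 weeks moved from -0.02 to 0.24, and with log2(TPM + 1) to 0.29. Scaled to the 12 cardiomyocyte markers it was 0.47, and with mitochondrially encoded genes removed and library size alone it was 0.15. Each member moved upward with this median.

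Gjc1 was called higher at 6 weeks under each of these scalings, from 0.71 with mitochondrially encoded genes removed to 1.02 against the cardiomyocyte markers. Dsp had a log2 change of -0.10 with library size alone (adjusted P = 0.268), 0.04 with TPM (adjusted P = 0.618) and 0.13 against cardiomyocyte markers (adjusted P = 0.185). Dsc2 had -0.29, -0.13 and -0.06 under the same 3 scalings, of which the first passed the test (adjusted P = 0.0398). Pkp2 turned to 0.08, 0.22 and 0.31, and the last 2 passed the test as increases.

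Under the same 3 scalings Jup was called higher, at 0.32, 0.48 and 0.55, and Gja1 was called higher, at 0.26, 0.41 and 0.49. Against the median of all genes in the same fit, Gjc1 and Jup lay above it and Dsp, Pkp2, Dsc2, Dsg2, Gja4 and Cdh2 below it in the 5 scalings plotted. With library size alone 4 genes were called at 6 weeks, Gja1, Gjc1 and Jup as higher and Dsc2 as lower, and with TPM 6 were called, all of them higher. Over all 15054 tested genes, library size alone called 5820 and log2(TPM + 1) called 7472. TPM that were themselves TMM-scaled gave 4 calls, with Gja1 at 0.01 and Dsp at -0.36, and 3256 calls over all genes.

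**Figure D3:**
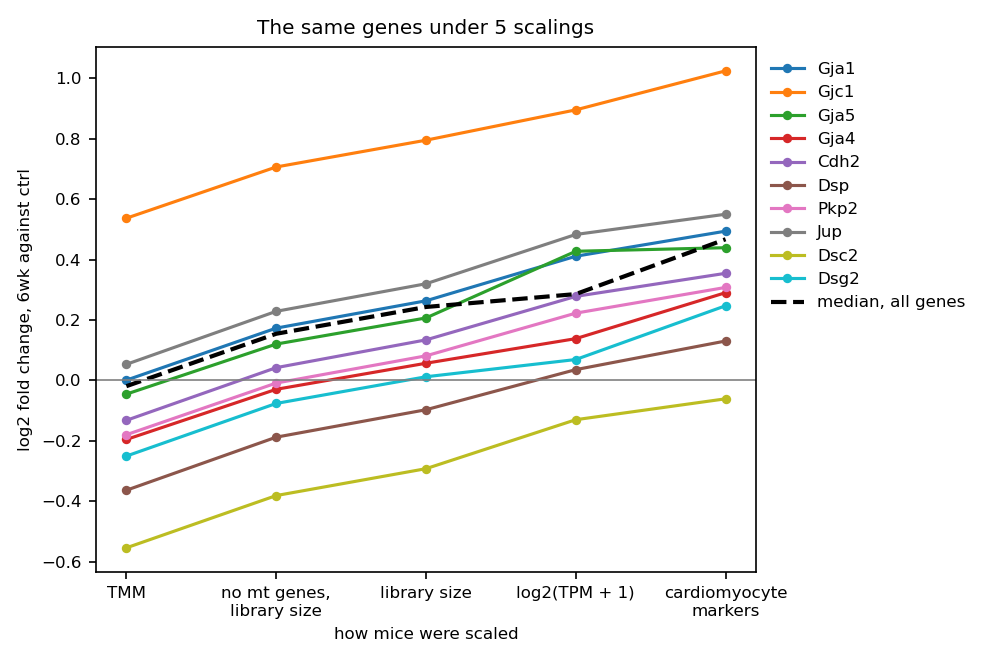
Log2 fold change at 6 weeks against ctrl (vertical axis) of the 10 genes under 5 ways of scaling the mice (horizontal axis), with the median of all tested genes as a dashed line. The dashed line lies at -0.02 with TMM and at 0.47 with cardiomyocyte markers, and the genes keep Gjc1 as the highest and Dsc2 as the lowest throughout.

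Ratios between 2 genes in the same mouse do not depend on the scaling of the counts. All 45 pairs of the 10 genes were compared for each pair of groups with a two-sided exact permutation test on the log2 ratio, and P values were adjusted over the 135 tests. This set of tests was chosen after seeing the data. With 6 mice against 6 the smallest P is 0.00216. At 6 weeks 14 pairs passed an adjusted P of 0.05, and in 6 of them the groups did not overlap. Pairs that share a gene are not independent, and 9 of the 14 were pairs with Gjc1. The share of passing pairs among other genes was not computed.

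Gjc1 rose relative to each of the other 9 genes at 6 weeks. The geometric mean ratio of Gja1 to Gjc1 counts fell from 29.7 in ctrl mice to 20.3 at 6 weeks (exact permutation test, adjusted P = 0.0438). The ratio of Gjc1 to Dsc2 was 0.454 in ctrl mice and 0.971 at 6 weeks, and these groups did not overlap (exact permutation test, adjusted P = 0.0417). Ratios of Gjc1 to Dsp and to Pkp2 also had no overlap between ctrl and 6wk mice.

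Dsp and Dsc2 fell relative to several partners. Gja1 counts were 0.273 of Dsp counts in ctrl mice and 0.349 at 6 weeks, without overlap (exact permutation test, adjusted P = 0.0417). The ratio of Gja1 to Dsc2 was 13.5 in ctrl mice and 19.7 at 6 weeks, also without overlap and with the same adjusted P in the exact permutation test. Within the desmosome the ratio of Dsp to Jup was 7.42 in ctrl mice, 6.12 at 2 weeks and 5.58 at 6 weeks.

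The Dsp to Jup ratio was the only pair to pass the test at 2 weeks (exact permutation test, adjusted P = 0.0417), where the groups overlapped. At 6 weeks its groups did not overlap. In all, Dsc2 fell against 4 genes (Gja1, Gjc1, Jup and Cdh2), Dsp against 3 (Gja1, Gjc1 and Jup), and Pkp2, Gja5, Gja4 and Dsg2 each against Gjc1 alone.

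**Figure D4:**
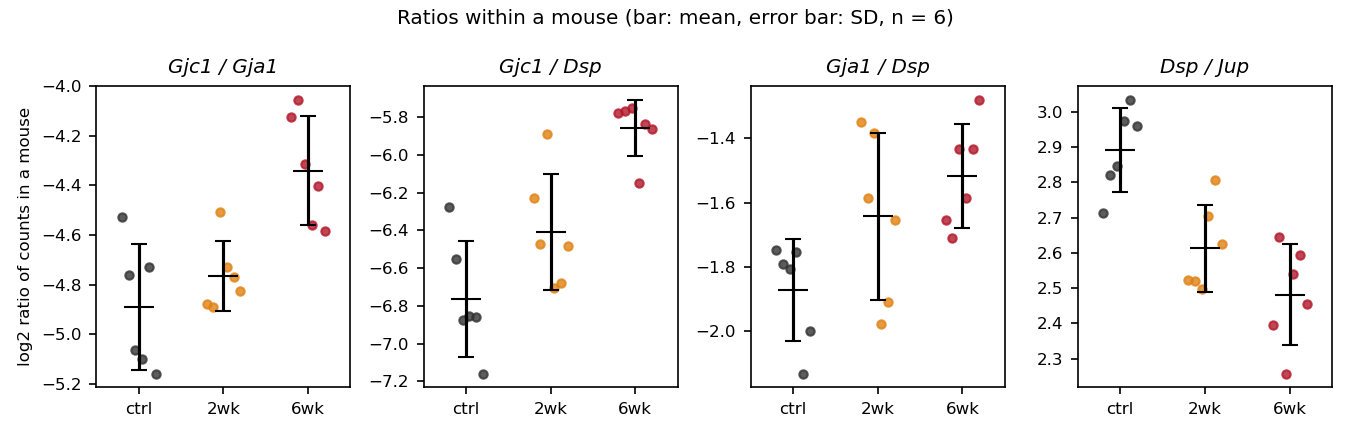
Log2 ratio of the counts of 2 genes in the same mouse (vertical axis, each panel with its own range) by group; points are mice, bars are means and error bars are SD (n = 6). For Gjc1 to Dsp the ctrl mice lie between -7.16 and -6.28 and the 6wk mice between -6.15 and -5.75.

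Shares within the connexin family were computed per length. Gja1 made up 92.2 ± 1.09% (SD, n = 6) of the summed TPM of the 4 connexins in ctrl mice, 92.0 ± 0.818% at 2 weeks and 90.3 ± 1.23% at 6 weeks. Gjc1 made up 4.88 ± 0.774%, 5.23 ± 0.539% and 6.95 ± 0.906%. The Gjc1 share was higher at 6 weeks than in ctrl mice (exact permutation test, P = 0.00433, adjusted over 12 tests 0.0390), and the ranges overlapped slightly, with 5.91 to 8.10% against 4.13 to 6.02%. For Gja1 the difference at 6 weeks did not pass after adjustment (exact permutation test, P = 0.0216, adjusted 0.0779). Gja5 and Gja4 stayed between 0.888 and 2.32% each in single mice of the 3 groups.

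The 2wk and 6wk mice were also compared with each other. None of the 10 genes passed edgeR's test, where 5.33% of all genes did, and none had groups that lay apart, where 3.54% of all genes did. At an unadjusted P under 0.05 there were 5 genes (Gjc1, Dsc2, Dsg2, Dsp and Pkp2). DESeq2 and limma voom each called 1 gene, Gjc1. In the edgeR fit Gjc1 differed by 0.35 (SE 0.103, adjusted P = 0.0517) and Dsg2, which was highest at 2 weeks, by -0.46 (SE 0.172, adjusted P = 0.128).

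Ratios within a mouse passed between these times only for pairs with Gjc1. Of 45 pairs 5 passed the exact permutation test, and each was Gjc1 with another gene (Gja1, Dsp, Pkp2, Dsc2 or Cdh2). The geometric mean ratio of Gja1 to Gjc1 was 20.3 in 6wk mice against 27.2 in 2wk mice (exact permutation test, adjusted P = 0.0438). The Gjc1 share of connexin TPM also differed between the times (exact permutation test, P = 0.00649, adjusted 0.0390).

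Across the 18 mice, with group means removed, the 10 genes did not move as one block. Pearson's r between pairs of them lay between -0.63 (Gjc1 and Dsp, Spearman's rho -0.50) and 0.55 (Gja1 and Pkp2, rho 0.43). Dsc2 and Cdh2 had an r of 0.51 and Gja1 and Cdh2 an r of 0.50. Such values share a library and its scaling and are given as a description.

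The genes most like Gja1, Gja5 and Dsp were sought in the same way among all tested genes. For Gja1 the nearest was Ppp1r14c (r 0.82, rho 0.88, r without the 2 most extreme mice 0.75), followed by Cage1 (r 0.79) and Ttc9c (r 0.79). For Dsp they were Alpk3, a muscle kinase-like gene (r 0.86), Riok3 (r 0.86) and Pla2g16 (r 0.84). For Gja5 they were Arl5a, Dzip3 and Taok1 (r 0.79 to 0.80), each with an r between 0.62 and 0.68 without the 2 most extreme mice.

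Other junction genes were described from 5 lists on TMM-scaled counts. At 6 weeks 13.5% of all tested genes were called higher and 11.5% lower. The lists of other connexins and of other desmosome genes had no call at 2 weeks or between 2 and 6 weeks. Of 19 other connexins and pannexins, 7 passed the filter and 1 was called at 6 weeks. This was Panx1, a pannexin that forms channels in single membranes, which rose by 0.82 (SE 0.223, adjusted P = 0.0111) from a median of 1.95 CPM to 3.89 CPM, with overlapping groups. Median log2 fold change of the 7 genes was -0.43.

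Of 14 other desmosome genes, 6 passed the filter, 1 was called higher and 2 lower at 6 weeks. Pkp4, an armadillo-repeat relative of Pkp2, fell by 0.43 on the log2 scale (adjusted P = 0.000615), and Des, which encodes the desmin filament that Dsp anchors, fell by 0.28 (adjusted P = 0.0260). With library size alone Pkp4 was at -0.17 and Des at -0.01, and neither passed, while against the cardiomyocyte markers both were above 0. Pkp3 rose by 1.50 (adjusted P = 0.0129) from a median of 0.206 to 0.545 CPM, a level near the floor of 3 counts.

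Of 16 adherens junction and area composita genes, 13 were tested, and 2 were called higher and 2 lower at 6 weeks. At 2 weeks 1 was called lower, and from 2 to 6 weeks 1 was called higher. Afdn (afadin), an actin-binding partner of nectins, fell by 0.36 (adjusted P = 0.00269), and Ctnna1, the alpha-catenin shared by many tissues, fell by 0.17 (adjusted P = 0.0486, and 0.117 with only the 2 groups fitted). Ctnna1 turned to 0.10 with library size alone (adjusted P = 0.177). Afdn was at -0.09 with library size alone (adjusted P = 0.429) and at 0.13 against cardiomyocyte markers. Cdh5, the endothelial cadherin, rose by 0.53 (adjusted P = 0.000197) without overlap, and Nectin3 rose by 0.41 (adjusted P = 0.0372).

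Ctnna3, Ctnnb1 and Vcl, which also link cadherins to actin, did not pass at 6 weeks on TMM-scaled counts. Ctnna3 (alpha-T-catenin) had a log2 change of -0.34 (SE 0.128, adjusted P = 0.0568), and Ctnnb1 (beta-catenin) of -0.04 (SE 0.0545, adjusted P = 0.673). Vcl (vinculin) had a log2 change of 0.16 (SE 0.0607, adjusted P = 0.0660). Under library size alone Vcl was called higher at 0.42 and Ctnnb1 at 0.23.

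All 26 gap junction and disc partner genes were tested, with 3 called higher and 10 lower at 6 weeks and a median log2 fold change of -0.21. At 2 weeks 2 were called higher and 2 lower, where 5.02% of all tested genes were called. From 2 to 6 weeks 5 were called lower and none higher, where 5.33% of all tested genes were called. Tjp1 (ZO-1), the scaffold that binds the Gja1 tail, had 167 to 193 CPM in ctrl mice and 135 to 153 CPM at 6 weeks, without overlap (log2 fold change -0.31, SE 0.0486, adjusted P = 0.000149).

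Csrp3 (muscle LIM protein) fell by 0.54, Tmem65 by 0.47, Ank2 (ankyrin-B) by 0.40 and Jph2 (junctophilin 2) by 0.33 at 6 weeks. With library size alone the log2 fold changes of Tjp1 (-0.05), Ank2 (-0.14), Jph2 (-0.07) and Tmem65 (-0.21) did not pass, and against cardiomyocyte markers Tjp1, Ank2 and Jph2 lay above 0. Csrp3 was still called lower with library size alone (-0.27, adjusted P = 0.00628). In that library size fit 7 of the 26 were called higher and 1 lower, where 5820 of all 15054 genes were called and their median was 0.24.

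Of 19 transcription regulators that are known to act on connexin genes or on cardiac patterning, none was called higher and 2 lower at 6 weeks. None was called at 2 weeks, and 1 was called lower from 2 to 6 weeks. Hopx fell by 0.63 (adjusted P = 0.000179) without overlap and Tbx5 by 0.30 (adjusted P = 0.0453). Nkx2-5 had a log2 change of -0.21 (SE 0.101, adjusted P = 0.137). Hopx stayed below 0 and was called with library size alone (-0.37, adjusted P = 0.0120), whereas Tbx5 had -0.04 there and 0.18 against cardiomyocyte markers.

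**Figure D5:**
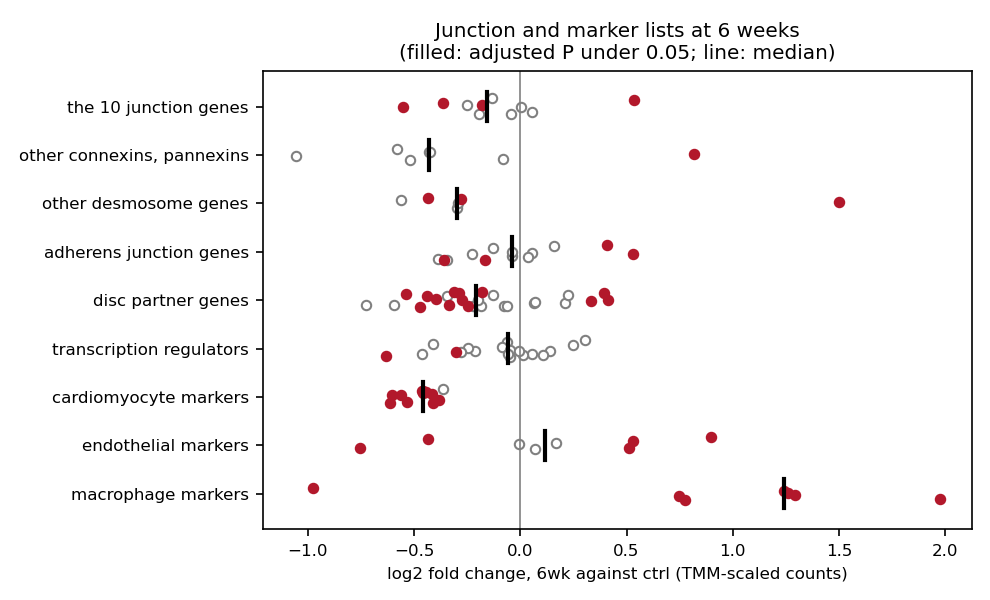
Log2 fold change at 6 weeks against ctrl on TMM-scaled counts (horizontal axis) of single genes in 9 lists; filled points have an adjusted P under 0.05 and vertical lines are list medians. The median is -0.16 for the 10 junction genes, -0.46 for cardiomyocyte markers and 1.24 for macrophage markers.

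Markers of the cell types in the tissue moved with the groups. Of 12 cardiomyocyte markers, 11 were called lower at 6 weeks (2 with library size alone), and their summed level was 52032 to 73831 CPM in ctrl mice, 52588 to 61902 CPM at 2 weeks and 43092 to 53460 CPM at 6 weeks. Of 7 macrophage markers, 6 were called higher and 1 lower, with sums of 87.6 to 220 CPM in ctrl mice and 214 to 309 CPM at 6 weeks. Of 8 endothelial markers, Cdh5 among them, 3 were called higher and 2 lower, with sums of 1059 to 1293 CPM in ctrl mice and 1339 to 1758 CPM at 6 weeks. The part of these shifts in the changes of the junction genes was not tested.

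Markers of further cell types in which Gja5 and Gja4 are known are given for comparison. None of 8 arterial endothelial markers was called at 6 weeks, and their sums were 128 to 151 CPM in ctrl mice and 111 to 140 CPM at 6 weeks. Of 6 conduction system markers, 5 passed the filter and 2 were called lower, with sums of 37.3 to 68.1 CPM in ctrl mice and 28.5 to 44.6 CPM at 6 weeks. Atrial myocyte markers varied between 81.5 and 1623 CPM over the mice without a call, and fibroblast markers were called lower for 1 of 7 and higher for none.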

How the data were processed

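The authors aligned reads, estimated abundance per transcript by Salmon, added transcripts up by gene, and deposited estimated counts and TPM per Ensembl gene and mouse (GRCm38). The estimated counts are not normalized between mice. The deposited TPM are scaled by the authors for transcript length and for the total of each mouse. Salmon 1.0 and CASAVA 1.8 are named in the submitters' processing notes.

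Counts were rounded to whole numbers, a gene was tested if 6 or more mice reached 0.23 CPM, and edgeR 4.0.16 (R 4.3.3) was fitted once to the 3 groups with TMM scaling. P values of the quasi-likelihood F test, two-sided, were adjusted over 15054 genes by the Benjamini-Hochberg method, and a gene was called at an adjusted P under 0.05. SE is the absolute log2 fold change divided by the square root of F. Ratios and shares were compared with exact permutation tests (scipy 1.17.1). On simulated counts for 6 weeks, 188 of 200 genes changed 2-fold were found (94%), with 9 false calls among 14926 genes.

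Alternatives were DESeq2 1.42.0, limma 3.58.1 voom, other scalings, filters and thresholds, TPM, a Y-linked covariate (10 mice had over 1 CPM of Y-linked genes), the replicate number as a block, only the 2 groups compared and each mouse left out. Mitochondrial gene removal with library size alone, TMM-scaled TPM, and the ratios were added after seeing the data. Members and gene lists were chosen with earlier results of these data known. Named were all members, list genes called in any comparison (up to 6 a list, by smallest P), 7 fixed partner and regulator genes, and the 3 genes most like Gja1, Gja5 and Dsp. Of the genes named by this rule, 2 are not reported here. Mice were taken as separate animals, as labelled. Intervals and floors cover counting error only where they rest on counts alone.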

Additional observations from a re-analysis of the deposited data

Results flagged for a closer look

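Gja5 and Gja4 each had 1 mouse far above the others of its group at 6 weeks, and it was the same mouse, replicate 5, with 10.5 CPM of Gja5 and 8.12 CPM of Gja4. Of 30 groups of 6 mice examined (10 genes in 3 groups) these 2 were marked, and chance marks about 5% of groups. Without this mouse 4 of the 10 genes were called at 6 weeks.

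The level of Gjc1 relative to other junction genes differed between 2wk and 6wk mice. Both times share a single ctrl group without a labelled collection time. Time after irradiation and age at collection therefore cannot be told apart. From 2 to 6 weeks the log2 ratio of Gja1 to Gjc1 changed by -0.43, that of Gjc1 to Dsp by 0.55, to Pkp2 by 0.49, to Dsc2 by 0.69 and to Cdh2 by 0.41 (exact permutation tests, adjusted P between 0.0417 and 0.0438 over 135 tests). The share of Gjc1 in connexin TPM was 6.95% at 6 weeks against 5.23% at 2 weeks (exact permutation test, adjusted P = 0.0390). The log2 fold change of Gjc1 itself between these times, 0.35, had an adjusted P of 0.0517 in edgeR.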

How the results depend on the processing

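At 6 weeks the count of called genes was 4 with edgeR and between 3 and 6 under the alternatives at the same threshold, and 0 once an absolute log2 fold change above 1 was also required. Of all 15054 tested genes, 3184 were called with only the 2 groups compared and 9380 with cardiomyocyte marker scaling. Leaving out each mouse in turn gave 3 to 4 calls at 6 weeks, 0 at 2 weeks in every case, and 0 to 1 between 2 and 6 weeks. Pkp2 was the call lost without control replicate 3 or without 6wk replicate 1, and Gjc1 was the call gained between 2 and 6 weeks without control replicate 1, 4 or 6, 2wk replicate 3 or 6wk replicate 4. Between 2 and 6 weeks 1 gene, Gjc1, was called with DESeq2, limma voom with quality weights, library size alone, DESeq2 size factors, cardiomyocyte marker scaling, a filter of 1 CPM, TPM with either pseudocount, the Y-linked covariate, only the 2 groups compared, and mitochondrially encoded genes removed with library size alone. Over all tested genes these settings called between 586 (limma voom) and 3073 (cardiomyocyte marker scaling). At 2 weeks library size alone called 1 gene, as did mitochondrially encoded genes removed with library size alone, cardiomyocyte marker scaling called 4, and TPM called 3 with either pseudocount. Of all 15054 tested genes, library size alone called 1789, cardiomyocyte marker scaling 3353, log2(TPM + 1) 2813 and log2(TPM + 0.1) 3026. With mitochondrially encoded genes removed and library size alone, 1067 of 15336 genes were called. Replicate numbers did not pair the mice (Pearson's r of same-numbered mice between -0.08 and 0.11, over 0.1 in 2 of 18 pairs, and 3 of 18 mice closest to their own number), and with the replicate number as a block 0 genes were called at 2 weeks, 3 at 6 weeks and 1 between 2 and 6 weeks.

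In 81 cases outside the left-out mice a log2 fold change turned sign, 13 of them with library size alone, 19 with cardiomyocyte markers, 18 with each TPM pseudocount, 10 with mitochondrially encoded genes removed and library size alone, and 3 with TMM-scaled TPM. In all but the last of these settings the median of all genes moved upward as well. With library size alone these log2 fold changes were Gja5 0.12, Gja4 0.098, Pkp2 0.099 and Cdh2 0.077 at 2 weeks, Gja5 0.21, Gja4 0.057, Pkp2 0.081, Dsg2 0.012 and Cdh2 0.13 at 6 weeks, and Gja1 0.042, Gja5 0.085, Jup 0.055 and Cdh2 0.057 from 2 to 6 weeks. Scaled to the cardiomyocyte markers these log2 fold changes were Gja5 0.23, Gja4 0.20, Dsp 0.089, Pkp2 0.20, Dsc2 0.023 and Cdh2 0.17 at 2 weeks, Gja5 0.44, Gja4 0.29, Dsp 0.13, Pkp2 0.31, Dsg2 0.25 and Cdh2 0.35 at 6 weeks, and Gja1 0.18, Gja5 0.21, Gja4 0.094, Dsp 0.042, Pkp2 0.11, Jup 0.18 and Cdh2 0.19 from 2 to 6 weeks. With log2(TPM + 1) these log2 fold changes were Gja5 0.26, Gja4 0.12, Dsp 0.060, Pkp2 0.19, Dsc2 0.043 and Cdh2 0.18 at 2 weeks, Gja5 0.43, Gja4 0.14, Dsp 0.036, Pkp2 0.22, Dsg2 0.069 and Cdh2 0.28 at 6 weeks, and Gja1 0.086, Gja5 0.17, Gja4 0.016, Pkp2 0.028, Jup 0.047 and Cdh2 0.099 from 2 to 6 weeks. With log2(TPM + 0.1) these log2 fold changes were Gja5 0.33, Gja4 0.15, Dsp 0.061, Pkp2 0.20, Dsc2 0.047 and Cdh2 0.18 at 2 weeks, Gja5 0.54, Gja4 0.17, Dsp 0.036, Pkp2 0.23, Dsg2 0.083 and Cdh2 0.28 at 6 weeks, and Gja1 0.086, Gja5 0.21, Gja4 0.022, Pkp2 0.029, Jup 0.047 and Cdh2 0.10 from 2 to 6 weeks. With mitochondrially encoded genes removed and library size alone these log2 fold changes were Gja5 0.065, Gja4 0.042, Pkp2 0.039 and Cdh2 0.017 at 2 weeks, Gja5 0.12 and Cdh2 0.042 at 6 weeks, and Gja1 0.011, Gja5 0.055, Jup 0.024 and Cdh2 0.025 from 2 to 6 weeks. With TMM-scaled TPM these log2 fold changes were Gja5 0.077 at 2 weeks, Gja5 0.13 at 6 weeks, and Gja5 0.050 from 2 to 6 weeks. Leaving out a mouse turned the sign of values near 0: Gja5 lay between -0.13 and 0.093 at 2 weeks, -0.16 and 0.057 at 6 weeks and -0.14 and 0.081 between them, Gja4 between -0.22 and 0.040 at 2 weeks and -0.32 and 0.025 from 2 to 6 weeks, and Gja1 between -0.038 and 0.040 at 6 weeks. Gja5 and Gja4 had 54 to 157 counts per mouse, the fewest of the 10 genes. The causes of these changes between settings were not tested.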
